A study of Mus musculus with 7 samples.

Results

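The vascular basement membrane genes described here are 10 of the 21965 genes in a count table of the contused mouse spinal cord. They are the laminin chains Lama2, Lama4, Lama5, Lamb1, Lamb2 and Lamc1, the nidogens Nid1 and Nid2, perlecan (Hspg2), and Vwa1, whose product binds perlecan. The first 9 were chosen by family. Vwa1 was selected on its tight fall in the libraries labelled Bmal1-/-, so its genotype difference is given as a description, with no test. All 10 were found by symbol under their Ensembl identifiers, and all 10 passed the filter on low counts.

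Basement membranes are thin sheets of extracellular matrix that underlie endothelial cells and wrap pericytes, astrocyte endfeet, Schwann cells and muscle fibres. Laminins are trimers of an alpha, a beta and a gamma chain that bind cell surface receptors and self-assemble, type IV collagen forms a second network, and nidogens and the heparan sulfate proteoglycan perlecan link the networks. In vessels of the central nervous system these sheets are part of the blood spinal cord barrier.

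RNA was taken from a 5 mm segment of cord at the lesion epicenter on day 3 after a moderate T9 contusion (50 kdyn, 400 to 600 μm displacement) in mice injured at 8 to 10 weeks of age. Of the 7 mice, each with its own library, 3 were labelled Bmal1-/-, of which 2 were female, and 4 were WT, of which 2 were female. The Bmal1-/- mice carried the Arntl tm1Bra allele on a C57Bl/6J background, a germline loss of the clock factor BMAL1 that is not limited to any cell type, while the WT mice were C57Bl/6J, of which 1 was a littermate of a Bmal1-/- mouse. All mice were injured, so no uninjured level was measured in these libraries. The libraries held 38529644 to 44096737 counted reads, and in a principal component plot WT replicate 3 stood away from the rest of its group. Levels are given in CPM (counts per megaread of the library, after scaling the library total by its TMM factor), with means as mean ± SD.

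The gene count of Arntl, which encodes BMAL1, was higher in the libraries labelled Bmal1-/-. Its level was 24.1, 24.2 and 22.5 CPM in Bmal1-/- replicates 1 to 3 and 14.7, 15.3, 11.9 and 13.4 CPM in WT replicates 1 to 4. The log2 fold change was 0.77 (SE 0.10, edgeR quasi-likelihood adjusted p = 0.0155), and it was not past the threshold without any 1 of the Bmal1-/- libraries (adjusted p = 0.102, 0.052 and 0.06) or without WT replicate 4 (adjusted p = 0.0554). A gene count does not show which exons were read, so it is no check of the allele. Genotypes are therefore called as labelled, and every direction given below rests on those labels.

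Vwa1 (ENSMUSG00000042116, chr4:155768149-155774698 on the minus strand of GRCm38, 4 exon blocks) encodes a von Willebrand factor A domain protein of the matrix that binds perlecan and is known from cartilage and the basement membranes of peripheral nerve. Its level was 80.8, 69.5 and 69.7 CPM in Bmal1-/- replicates 1 to 3 and 182.7, 194.1, 208.1 and 193.2 CPM in WT replicates 1 to 4. All Bmal1-/- libraries lay under all WT libraries, and the lowest WT level was 2.26 times the highest Bmal1-/- level. The means were 73.3 ± 6.47 (n = 3) and 194.5 ± 10.5 (n = 4), and the Bmal1-/- mean was 37.7% of the WT mean. The coefficient of variation was 8.83% in Bmal1-/- and 5.37% in WT, and the counts behind these levels ran from 2746 to 8337. On the log2 scale the fold change was -1.41 (SE 0.08), with -1.33 among the females and -1.52 among the males. Vwa1 shares 913 exon bases with opposite-strand genes that are not in the count table, so reads of those genes could be counted in it if strand was not used. In bulk tissue, fewer cells of a type and less RNA per cell cannot be told apart, here and for every gene described next.

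**Figure D1:**
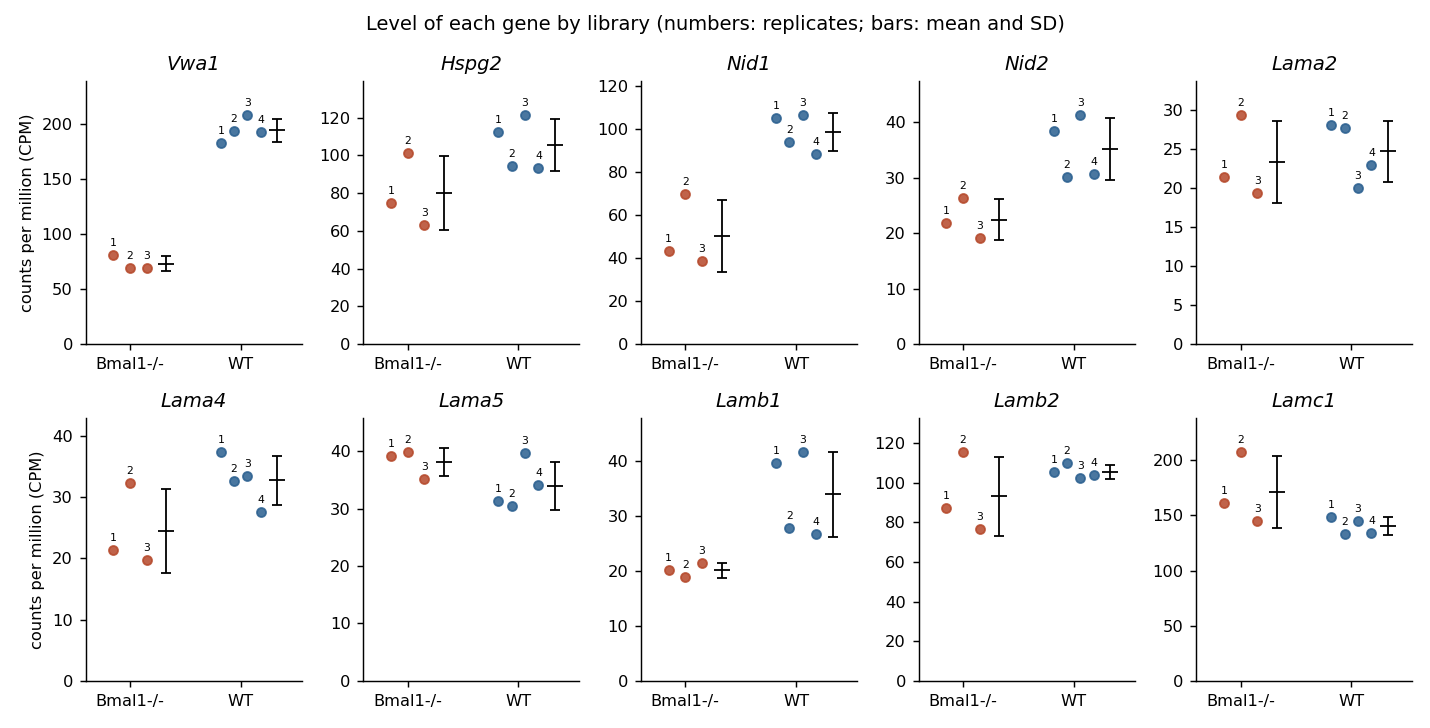
Level of each of the 10 genes in CPM (y axis, from 0) in the 3 libraries labelled Bmal1-/- (red) and the 4 WT libraries (blue), with replicate numbers beside the points and mean and SD in black. The groups of Vwa1, Nid1, Nid2 and Lamb1 do not overlap, and Bmal1-/- replicate 2 is the highest of its group for 8 of the other 9 genes.

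Of the 9 genes chosen by family, none passed the threshold of 0.05 for the adjusted p of edgeR over all 15743 genes tested. The background was 144 genes called lower, 0.915% of all genes, and 103 called higher, 0.654%. An unadjusted p under 0.05 was found for 3 of the 9, Nid1, Nid2 and Lamb1, against 20.9% of all genes. DESeq2 called the same 3 genes lower, where it called 5.63% of all genes lower and 3.5% higher, and limma-voom called none of the 9. The Bmal1-/- libraries all lay under the WT libraries for these 3 genes, against 13.5% of all genes, and all lay above them for none of the 9, against 13.4% of all genes. Log2 fold changes were negative for 7 of the 9 and positive for 2, and the median was -0.40, beside -0.01 over all genes tested.

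**Figure D2:**
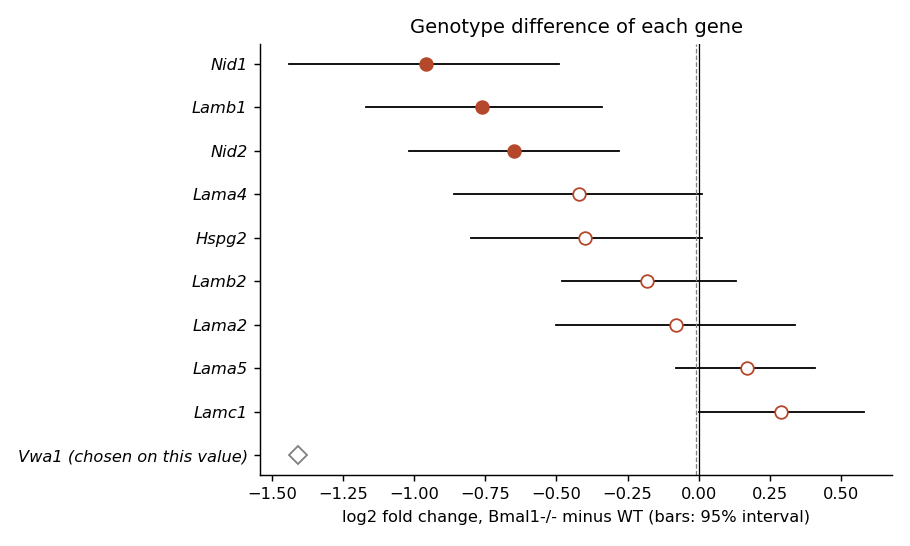
Log2 fold change of each gene, Bmal1-/- minus WT (x axis), with the 95% interval of the edgeR fit as a bar. Filled points are genes whose groups do not overlap (Nid1, Lamb1 and Nid2), open points are genes whose groups overlap, the dashed line is the median of all genes tested at -0.01, and the diamond is Vwa1 at -1.41, shown without an interval because it was chosen on this value.

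Nid1 (ENSMUSG00000005397, chr13:13437551-13512269, plus strand), which encodes nidogen-1, a rod-like linker that binds the laminin gamma-1 chain and type IV collagen, had the most negative value of the 9. It was at 43.3, 69.7 and 38.6 CPM in Bmal1-/- replicates 1 to 3 and at 105.3, 94.1, 106.4 and 88.6 CPM in WT replicates 1 to 4. The groups did not overlap, but Bmal1-/- replicate 2 stood well above the other Bmal1-/- libraries. The means were 50.5 ± 16.7 (n = 3) and 98.6 ± 8.70 (n = 4). The log2 fold change was -0.96 (SE 0.20, 95% interval -1.44 to -0.49), with an edgeR adjusted p of 0.0714 and a DESeq2 adjusted p of 0.000364. Without Bmal1-/- replicate 2, edgeR gave -1.27 (SE 0.11, adjusted p = 0.008), a call made for 0.838% of all genes in the lower direction in that fit. With any other library left out, Nid1 was not called. The edgeR adjusted p was 0.253 and 0.233 without Bmal1-/- replicates 1 and 3. It was 0.16, 0.108, 0.0617 and 0.123 without WT replicates 1 to 4.

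Nid2 (ENSMUSG00000021806, chr14:19751265-19811787, plus strand) encodes nidogen-2, the related linker. It was at 21.8, 26.4 and 19.1 CPM in Bmal1-/- replicates 1 to 3 and at 38.5, 30.2, 41.3 and 30.7 CPM in WT replicates 1 to 4. Every Bmal1-/- library was again under every WT library, and the gap between the groups was smaller than for Nid1. The means were 22.4 ± 3.69 and 35.2 ± 5.57, with a log2 fold change of -0.65 (SE 0.16, 95% interval -1.02 to -0.28), an edgeR adjusted p of 0.0952 and a DESeq2 adjusted p of 0.00527. Its exons share 437 bases with the counted opposite-strand gene Rtraf, and the strand setting of the counting is not given in the sources used here. In Bmal1-/-, Nid1 stood at 51.2% and Nid2 at 63.7% of its WT mean.

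Perlecan is a large proteoglycan whose heparan sulfate chains hold growth factors. Its gene Hspg2 (ENSMUSG00000028763, chr4:137468769-137570630, plus strand) was at 74.9, 101.5 and 63.3 CPM in Bmal1-/- replicates 1 to 3 and at 112.4, 94.6, 121.2 and 93.5 CPM in WT replicates 1 to 4. The groups overlapped through Bmal1-/- replicate 2, which exceeded WT replicates 2 and 4. The log2 fold change was -0.40 (SE 0.17, 95% interval -0.80 to 0.01, edgeR adjusted p = 0.243). Vwa1 per Hspg2, per kb of exon, was 4.26, 2.7 and 4.35 in Bmal1-/- replicates 1 to 3 and 6.42, 8.1, 6.78 and 8.16 in WT replicates 1 to 4. This ratio inherits the choice of Vwa1 and is a description only.

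Among the laminin alpha chains, Lama4 and Lama5 are the chains of endothelial basement membranes and Lama2 is the chain of muscle, Schwann cell and astrocyte-facing basement membranes. Lama4 (ENSMUSG00000019846, chr10:38965515-39110188, plus strand) was at 21.4, 32.3 and 19.8 CPM in Bmal1-/- replicates 1 to 3 and at 37.4, 32.7, 33.5 and 27.6 CPM in WT replicates 1 to 4. Replicate 2 lay within the WT range and the other Bmal1-/- libraries lay under it, and the log2 fold change was -0.42 (SE 0.19, 95% interval -0.86 to 0.01, edgeR adjusted p = 0.249). Lama5 (ENSMUSG00000015647, chr2:180176373-180225859, minus strand) was at 39.2, 39.8 and 35.2 CPM in Bmal1-/- replicates 1 to 3 and at 31.3, 30.4, 39.7 and 34.1 CPM in WT replicates 1 to 4. Its groups overlapped and its log2 fold change was 0.17 (SE 0.10, 95% interval -0.08 to 0.41, adjusted p = 0.355), with 0.36 among the females and -0.06 among the males. Lama2 (ENSMUSG00000019899, chr10:26980036-27619758, minus strand) was at 21.5, 29.4 and 19.4 CPM in Bmal1-/- replicates 1 to 3 and at 28.2, 27.8, 20 and 23.0 CPM in WT replicates 1 to 4. The ranges nearly coincided, and the log2 fold change of -0.08 (SE 0.18, 95% interval -0.50 to 0.34, adjusted p = 0.803) turned to 0.04 without Bmal1-/- replicate 3.

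The beta chains differed in whether their groups overlapped, and edgeR called neither. Lamb1 (ENSMUSG00000002900, chr12:31265234-31329644, plus strand), the beta-1 chain, was at 20.1, 18.8 and 21.4 CPM in Bmal1-/- replicates 1 to 3 and at 39.6, 27.7, 41.5 and 26.7 CPM in WT replicates 1 to 4. All Bmal1-/- libraries were lower and lay close together, while WT replicates 1 and 3 stood above WT replicates 2 and 4. The means were 20.1 ± 1.31 (n = 3) and 33.9 ± 7.76 (n = 4), with a log2 fold change of -0.76 (SE 0.18, 95% interval -1.17 to -0.34, edgeR adjusted p = 0.0895, DESeq2 adjusted p = 0.00381). It was the 1 gene of the 9 in which Bmal1-/- replicate 2 was the lowest of its group. Lamb2 (ENSMUSG00000052911, chr9:108479736-108490530, plus strand), the beta-2 chain, was at 87.3, 115.5 and 76.8 CPM in Bmal1-/- replicates 1 to 3 and at 105.3, 110.2, 102.3 and 103.8 CPM in WT replicates 1 to 4. The WT libraries lay close together, inside the Bmal1-/- range. Its log2 fold change was -0.18 (SE 0.13, 95% interval -0.48 to 0.13, adjusted p = 0.424).

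Lamc1 (ENSMUSG00000026478, chr1:153218922-153332786, minus strand) encodes the gamma-1 chain, the partner in most laminin trimers. It was at 161.4, 207.3 and 144.4 CPM in Bmal1-/- replicates 1 to 3 and at 148.9, 132.8, 145.2 and 134.4 CPM in WT replicates 1 to 4. Replicates 1 and 2 of Bmal1-/- exceeded every WT library and replicate 3 did not. Its log2 fold change was 0.29 (SE 0.12, 95% interval from just under 0 to 0.58, edgeR adjusted p = 0.244), the most positive value of the 9.

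The promoters of Nid1 and Lamb1 are shown because their groups did not overlap and BMAL1 is known to bind E-box letters. RefSeq promoters of build GRCm38.p6, from 250 bases before to 50 after the start, were matched for 6 of the 10 genes: Lama2, Lama5, Lamb1, Lamb2, Nid1 and Hspg2. Vwa1, Nid2, Lama4 and Lamc1 were not matched. Only bases before the annotated gene starts are printed, 5′ to 3′ along the gene's strand, which here is chr13:13437352-13437550 (plus strand) for Nid1 and chr12:31265043-31265233 (plus strand) for Lamb1, with copies of the GC box GGGCGG on either strand in capitals.
Nid1: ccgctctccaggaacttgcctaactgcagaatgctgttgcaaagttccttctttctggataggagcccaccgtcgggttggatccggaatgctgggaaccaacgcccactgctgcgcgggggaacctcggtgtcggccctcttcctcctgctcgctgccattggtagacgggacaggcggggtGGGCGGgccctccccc
Lamb1: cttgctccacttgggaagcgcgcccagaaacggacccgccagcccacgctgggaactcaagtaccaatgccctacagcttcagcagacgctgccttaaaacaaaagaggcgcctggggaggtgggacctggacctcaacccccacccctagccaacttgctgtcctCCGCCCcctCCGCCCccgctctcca
The E-box CACGTG was searched on both strands and was in none of the 6 windows, beside 7.15% of the 32851 RefSeq promoters of the same length. The variant CACGTT was also in none of them, beside 4.68%. The GC box was in 5 of the 6, beside 35.7%, with 1 copy in the printed bases of Nid1 and 2 in those of Lamb1. Only the GC box matched, so no matches of different motifs overlapped, and the absence of letters from these windows says nothing of binding elsewhere.

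Levels of different genes were compared per kb of exon. In WT, Vwa1 was the highest of the 10 at 53.7 ± 2.88 CPM per kb, followed by Lamb2 at 17.3 ± 0.57 and Lamc1 at 17.0 ± 0.957, whose WT ranges overlapped. Nid1 came next at 14.2 ± 1.25, then Hspg2 at 7.37 ± 0.953 and Nid2 at 6.80 ± 1.08, whose ranges overlapped. Lamb1 (3.42 ± 0.782), Lama5 (2.97 ± 0.366) and Lama4 (2.72 ± 0.333) formed a run in which each range overlapped that of its neighbour, and Lama2 was lowest at 1.51 ± 0.241. In Bmal1-/- the order began with Lamc1 at 20.7 ± 3.94 and Vwa1 at 20.2 ± 1.79 CPM per kb, and Lamb1 came level with Lama4, at 2.02 ± 0.132 and 2.03 ± 0.563, behind Lama5 at 3.34 ± 0.219.

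Ratios within a library do not depend on the scaling between libraries. They were computed after the levels had been seen and are given with no test. Nid1 per Lamc1, per kb, was 0.32, 0.40 and 0.318 in Bmal1-/- replicates 1 to 3 and 0.843, 0.844, 0.873 and 0.785 in WT replicates 1 to 4. Nid2 per Lamc1 was 0.216, 0.203 and 0.211 in Bmal1-/- replicates and 0.413, 0.364, 0.454 and 0.365 in WT replicates. Both nidogen ratios separated the groups with a wide gap, and Bmal1-/- replicate 2, which stood out in the CPM of both nidogens, was within the Bmal1-/- spread for Nid2 and nearer to its group than to WT for Nid1. Hspg2 per Lamc1 was 0.268, 0.283 and 0.254 in Bmal1-/- and 0.437, 0.412, 0.482 and 0.402 in WT, so that the groups of Hspg2, which overlapped in CPM, did not overlap against Lamc1. Nid1 per Nid2 was 1.65 ± 0.274 in Bmal1-/- and 2.11 ± 0.17 in WT, and its groups overlapped. Such ratios show unequal levels and not which of the genes differed. Lamc1 itself leaned toward higher values in Bmal1-/- (log2 fold change 0.29), which alone lowers any ratio to it in that group. Lamc1, Hspg2 and both nidogens each had their highest Bmal1-/- level in replicate 2, so the division also offsets the rise in that library. How many other genes would separate the groups when divided by Lamc1 was not counted.

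**Figure D3:**
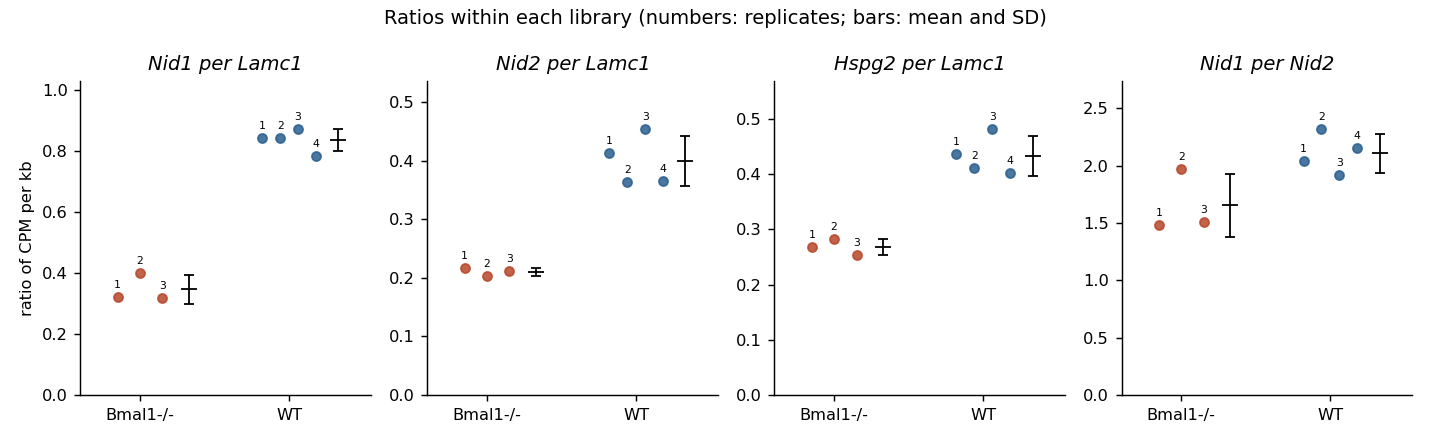
Ratios of CPM per kb within each library (y axis, from 0) for Nid1, Nid2 and Hspg2 per Lamc1 and for Nid1 per Nid2, with Bmal1-/- in red, WT in blue, replicate numbers beside the points and mean and SD in black. The ratios of both nidogens and of Hspg2 to Lamc1 do not overlap between groups, while Nid1 per Nid2 overlaps. The means of the ratios to Lamc1 are 0.346, 0.21 and 0.268 in Bmal1-/- and 0.836, 0.399 and 0.433 in WT. Lamc1 leaned higher in Bmal1-/-, which alone lowers ratios to it in that group.

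Laminin trimers take 1 chain of each class, so the shares of the chains within the alpha and the beta class were compared. The other laminin genes Lama1, Lama3, Lamb3 and Lamc3 were not called by edgeR, with log2 fold changes of -0.35, 0.50, 0.40 and -0.21 in that order (adjusted p = 0.345, 0.107, 0.27 and 0.479). Lama3, a chain of epithelial laminins, was at 5.50 to 6.30 CPM in Bmal1-/- and 3.47 to 4.44 CPM in WT without overlap, and DESeq2 called it higher (adjusted p = 0.00718). Among alpha chains, Lama5 made up 43.2, 38.2 and 42.7% of the summed CPM per kb in Bmal1-/- replicates 1 to 3 and 31.2, 32.0, 37.8 and 37.7% in WT replicates 1 to 4, all higher in Bmal1-/-. Lama4 made up 24.7 ± 3.88% in Bmal1-/- and 31.6 ± 2.79% in WT with overlap, and Lama2 17.5 ± 1.81% and 17.7 ± 3.18%. Lamb1 made up 11.9, 8.84 and 14.1% of the beta chains in Bmal1-/- replicates 1 to 3 and 18.3, 13.1, 19.7 and 13.4% in WT replicates 1 to 4, which overlapped through Bmal1-/- replicate 3. Lamb2 was the main beta chain in every library (78.9 to 88.7%).

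**Figure D4:**
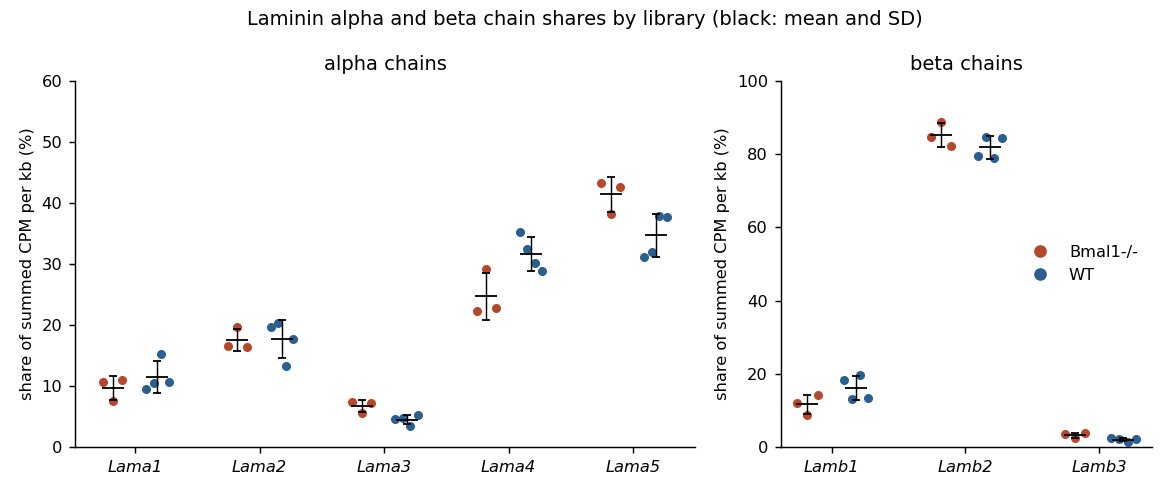
Share of each laminin alpha and beta chain in the summed CPM per kb of its class (y axis, percent; the alpha panel runs to 60 and the beta panel to 100) in each Bmal1-/- (red) and WT (blue) library, with mean and SD in black. Lama5 and Lama3 are higher in every Bmal1-/- library among alpha chains, Lamb3 among beta chains, and the other shares overlap. The Lama5 margin is narrow, with a lowest Bmal1-/- share of 38.2% and a highest WT share of 37.8%. A share also depends on the other chains of its class.

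The rest of the basement membrane genes were read from 7 lists with 63 genes. Of these, edgeR called 1 lower and 0 higher, against 0.915% and 0.654% of all genes, and DESeq2 called 7 lower and 4 higher, against 5.63% and 3.5%. The called gene was Fbln2, which encodes fibulin-2, a matrix protein that binds nidogens and perlecan. Fbln2 was at 24.2, 37.7 and 22.1 CPM in Bmal1-/- replicates 1 to 3 and at 76.3, 64.3, 82.5 and 70.4 CPM in WT replicates 1 to 4. The groups did not overlap, Bmal1-/- replicate 2 was again the highest of its group, and the log2 fold change was -1.39 (SE 0.20, edgeR adjusted p = 0.0197). The adjusted p was 0.126 and 0.0809 without Bmal1-/- replicates 1 and 3 and 0.0708 and 0.0613 without WT replicates 1 and 4. Without Bmal1-/- replicate 2, edgeR called 5 of the 63 genes lower, against 0.838% of all genes: Fbln2, Fbln1, Serpinh1, Col6a3 and Sulf1. With any other library left out, it called 0 or 1 of the 63 lower.

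By list, the type IV collagens, the second network of the sheet, had a median log2 fold change of -0.04 over 6 genes with none called. The main vascular chains Col4a1 and Col4a2 had log2 fold changes of -0.02 (SE 0.22) and -0.06 (SE 0.21). The 15 other basement membrane proteins had a median of -0.08, with Fbln2 called and 8 at an unadjusted p under 0.05, against 20.9% of all genes. The 9 genes listed for crosslinking and assembly of collagen IV had a median of -0.27 with 8 negative. Of them, 6 were at an unadjusted p under 0.05 and none was called. The 12 laminin receptors had a median of -0.23, the 11 heparan sulfate modifiers 0.00 and the 5 collagen VI chains -0.01. None was called in any of these lists. The collagen VI chains summed to 89.1, 437 and 63.9 CPM in Bmal1-/- replicates 1 to 3 and 145 to 243 CPM in WT. Replicate 2 thus lay above every WT library, and replicates 1 and 3 lay under every WT library. The log2 fold change of Col6a3 was -0.24, and -1.92 without Bmal1-/- replicate 2. The 5 other laminin chains had a median of 0.39. The 9 genes chosen by family, at -0.40, thus had a more negative median than each of the 7 lists, and no test was made of that difference. This was not particular to the 9, since cell marker lists described next had medians of -0.60 (endothelial), -0.73 (fibroblast and meningeal) and -0.39 (mural).

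Markers of the cells that make or border these sheets were counted beside them. The 12 endothelial markers summed to 523 to 596 CPM in Bmal1-/- and 621 to 997 CPM in WT, with 11 of 12 negative and a median log2 fold change of -0.60. Cdh5, VE-cadherin, was called lower (log2 fold change -0.85, edgeR adjusted p = 0.0466), and this call remained in 1 of the 7 fits that leave out a library (adjusted p up to 0.216), the fit without WT replicate 3. The 10 mural cell markers summed to 467 to 585 CPM in Bmal1-/- and 805 to 1030 CPM in WT, with 7 of 10 negative, 3 positive and a median of -0.39. Tagln, a smooth muscle actin-binding protein, was called (log2 fold change -1.88, adjusted p = 0.00525, at most 0.0452 with any library left out) and, at means of 90.6 CPM in Bmal1-/- and 332.5 CPM in WT, made up most of the gap in the sums. The positive genes were Notch3 (0.33), Abcc9 (0.26) and Kcnj8 (0.09), and Abcc9 was higher in every Bmal1-/- library. The sums of both lists did not overlap between the groups, and their part in the levels of the basement membrane genes was not tested.

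The fibroblast and meningeal list did not follow the labels in every library. Its 10 genes summed to 594, 2600 and 550 CPM in Bmal1-/- replicates 1 to 3 and to 1850, 2410, 1490 and 1540 CPM in WT replicates 1 to 4, with none called and a median of -0.73. Bmal1-/- replicate 2, the highest of its group for 8 of the 9 genes, thus also had the highest fibroblast marker sum of all 7. Its endothelial marker sum was the lowest. Much of the fibroblast sum came from Col1a1, Col1a2 and Col3a1, at 640.5, 627.5 and 759.0 CPM in that library. Dcn, Lum, Dpt, Slc6a13, Ptgds and Islr were higher in WT replicate 2, and Pdgfra was not. By the mean log2 CPM of the list, WT replicate 2 was also higher, at 6.86 beside 6.58. Col1a1, a type I collagen chain, was at 118.8, 640.5 and 88.2 CPM in Bmal1-/- replicates 1 to 3 and 314.5 to 460.6 CPM in WT. Without Bmal1-/- replicate 2, the log2 fold changes were -0.67 for Lama4, -0.61 for Hspg2, -0.36 for Lamb2, -0.27 for Lama2 and 0.12 for Lamc1. Of the 9 genes, edgeR called Nid1 alone in that fit. The part of fibroblasts in the levels of Bmal1-/- replicate 2 was not tested.

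Peripheral nerve and muscle markers were low in Bmal1-/-. The 7 tested Schwann cell markers were negative in all cases (median log2 fold change -3.01), with Egr2 called lower (-1.09, adjusted p = 0.0155). The Egr2 call was lost without Bmal1-/- replicates 1 or 3 or WT replicate 1, where the adjusted p reached 0.109. The list summed to 74.1 to 85.7 CPM in Bmal1-/-, where Vwa1 was at 69.5 to 80.8 CPM. In WT replicates 1 to 4 it summed to 292, 386, 128 and 101 CPM, where Vwa1 was at 182.7, 194.1, 208.1 and 193.2 CPM. The 8 skeletal muscle markers summed to 5.97 to 7.94 CPM in Bmal1-/- and 50.8 to 60.8 CPM in WT, with a median of -3.31 and 6 genes called lower: Ckm, Acta1, Tnnt3, Mylpf, Actn3 and Myh1. Each of these 6 calls was lost without at least 1 of the libraries, with adjusted p up to 0.126. Astrocyte markers leaned the other way, with 6 of 9 positive, a median of 0.42 and none called. The 8 macrophage and microglia markers had a median of -0.18 and the 8 markers of spinal cord neurons and oligodendrocytes 0.17, none called. No gene of these last 3 lists was at 0 in any library, while the Schwann cell and muscle lists each held 1 gene at 0 in a Bmal1-/- library. That gene of the Schwann cell list had at most 7 counts in any library of either group and was not tested. The part of these differences in tissue content in the values of Vwa1 and the other genes was not tested.

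**Figure D5:**
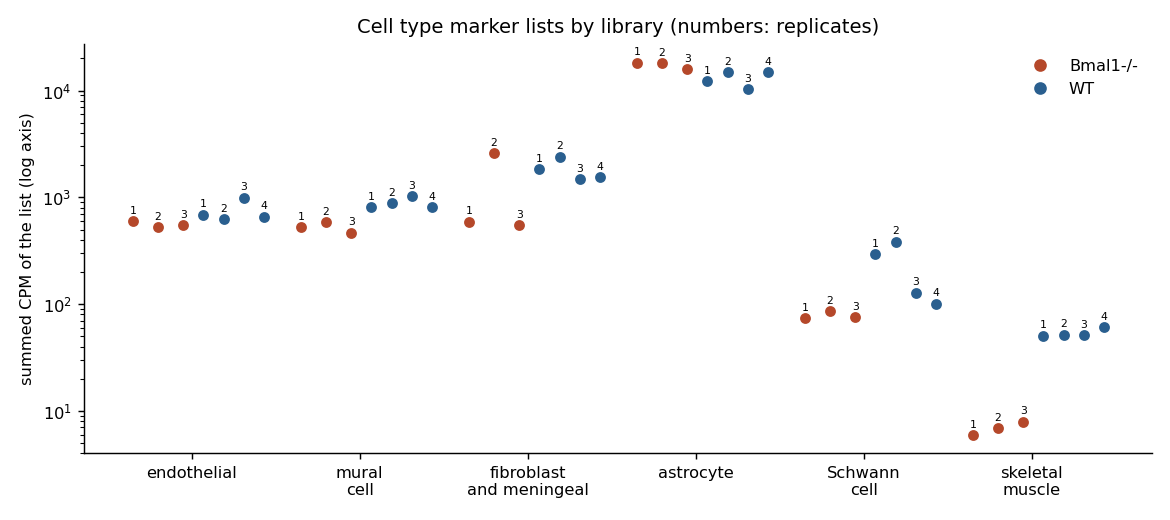
Summed CPM of 6 cell type marker lists (y axis, log scale) in each Bmal1-/- (red) and WT (blue) library, with replicate numbers beside the points. Endothelial, mural, Schwann cell and skeletal muscle sums are lower in every Bmal1-/- library, and the fibroblast and meningeal sum of Bmal1-/- replicate 2, at 2600 CPM, is the highest of all 7.

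Likeness was measured as the root mean square difference of log2 CPM, centred per gene, over the 7 libraries. The 5 genes nearest to Vwa1 were Bdkrb2 (0.139), Ciart (0.14), Gm10309 (0.159), Cnn2 (0.195) and Tmod4 (0.197). Bdkrb2, a bradykinin receptor, was at 4.55 ± 0.948 CPM in Bmal1-/- and 12.4 ± 0.614 CPM in WT, and Ciart, a repressor of the circadian clock, at 2.39 ± 0.102 and 5.86 ± 0.676 CPM. Cnn2, a calponin that binds actin, was at 28.8 ± 6.17 and 66.2 ± 8.64 CPM, while Gm10309 and Tmod4 were under 1 CPM in both groups. With a prior count of 0.5 in place of 2, 3 of these 5 genes stayed among the nearest 5. Among the 9 others, Nid1 was the nearest to Vwa1 (0.349) and Lamc1 the farthest (0.852). They are also the genes of the 9 with the most negative and the most positive log2 fold change. Vwa1 was chosen on its genotype difference, so nearness to it largely follows the genotype difference of the other gene. Likeness to Vwa1 is therefore a description only. The most alike pair among the 9 was Lama4 and Hspg2 (0.108), followed by Nid2 and Hspg2 (0.132) and Lama2 and Lamb2 (0.143). Nearest to the median profile of the 9 were Fbxl8 (0.063), Kdelc2 (0.0765) and Ifi27 (0.0794), none of them a basement membrane gene by the lists used.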

How the data were processed

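RNA was sequenced from 7 libraries of contused spinal cord, 3 labelled Bmal1-/- and 4 WT. The authors made stranded poly-A libraries, checked reads with FastQC 0.10.1, aligned them to GRCm38.p6 with Tophat 2 and counted them per gene with HTSeq 0.10.0 (tools per the submitters' notes and the study's methods). The deposited values are raw counts per gene, without normalization. The annotation release and the strand setting are not given in the sources used here. Of 21965 gene identifiers, 21939 matched GENCODE M21, which gave symbols, positions and exon lengths. All 145 symbols of the lists were found.

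Genes were filtered with filterByExpr (15743 left, of 21965, with 3039 at 0 in all libraries), normalized with TMM and tested on genotype with edgeR 4.0.16 (quasi-likelihood, R 4.3.3, limma 3.58.1), with Benjamini-Hochberg adjustment over all genes tested and a threshold of 0.05. Library totals were 38529644 to 44096737, so spread between mice and not counting error sets the precision. The log2 CPM used a prior count of 2. The test was checked on simulated counts.

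The 10 genes and all lists were chosen with earlier results of these data known, so no count over a list was tested. Named genes are the 10, Arntl, other laminin chains, called genes of the lists and the genes nearest to Vwa1 and to the median of the 9. Col4a1, Col4a2, Abcc9, Notch3, Kcnj8, the genes of the fibroblast and meningeal list and the list genes called only without Bmal1-/- replicate 2 were named after their values were seen. Not every such gene is reported here. Alternatives were DESeq2 1.42.0, limma-voom, RLE and upper-quartile factors, other filters, sex as a covariate, a replicate block and each library left out. Figures used matplotlib 3.10.9 and python 3.11.15.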

Additional observations from a re-analysis of the deposited data

Results flagged for a closer look

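Of 51 groups of the 4 WT libraries checked for a library far from the others, 3 were flagged, where chance flags about 1 in 20. Lama1, the alpha-1 laminin chain, was at 13.7 CPM in WT replicate 3 and at 8.14 to 8.41 CPM in the other WT libraries. The summed level of the genes listed for crosslinking and assembly of collagen IV was 1500 CPM in WT replicate 3. It was 1140 to 1180 CPM in the other WT libraries. The summed skeletal muscle markers were at 60.8 CPM in WT replicate 4 and 50.8 to 51.7 CPM in the others. None of the 10 basement membrane genes was flagged.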

How the results depend on the processing

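Each of the 10 genes was refitted under 15 alternatives. The log2 fold change kept its sign in all of them for 9 genes, with ranges of -1.48 to -1.37 for Vwa1, -1.27 to -0.81 for Nid1, -0.78 to -0.55 for Nid2, -0.85 to -0.64 for Lamb1, -0.61 to -0.26 for Hspg2, -0.67 to -0.29 for Lama4, 0.12 to 0.25 for Lama5, -0.36 to -0.06 for Lamb2 and 0.12 to 0.39 for Lamc1. The exception was Lama2, which ran from -0.27 to 0.04 and turned positive (0.038) without Bmal1-/- replicate 3. With DESeq2 the genes called lower and higher over all genes were 922 and 573, beside 144 and 103 with edgeR, 3 of the 9 genes were lower, and 7 and 4 list genes were lower and higher. With a library left out, 27 to 439 genes were lower and 30 to 291 higher over all genes, 0 to 1 of the 9 was lower, and 0 to 5 list genes were lower and 0 to 1 higher. The highest counts over all genes were those without WT replicate 3, and the lowest those without Bmal1-/- replicate 1. With the replicate block, on replicates 1 to 3 of each group, 0 genes were lower, 0 higher and 0 list genes lower. Deviations of same-numbered libraries correlated at -0.17, 0.18 and -0.29, so the numbers do not pair the libraries. The causes of these shifts were not tested. The 10 genes had 751 to 8932 counts per library, so depth limits their values less than the spread between mice, which in Bmal1-/- rests on 3 libraries.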
